A study of Mus musculus with 26 samples.

Results

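Polycomb repressive complex 1 (PRC1) subunits were followed through 26 RNA libraries of mouse haematopoietic stem cells (HSCs). The set comprises 9 of the 23416 genes in the deposited table, taken by symbol: Rnf2, Ring1, Bmi1, Pcgf5, Cbx2, Cbx7, Cbx8, Phc1 and Phc2. All 9 were present, and all 9 reached 1 RPKM (read number per kilobase of gene length, normalised for library depth) in at least 5 libraries, the filter for testing. HSCs were sorted from bone marrow, and each library was made with Smart-Seq2, a full-length cDNA method for very small RNA inputs. The groups were the double mutant with JAK2V617F and Ezh2 loss together (n = 7 libraries), Ezh2 loss alone (n = 7), JAK2V617F alone (n = 7) and control (n = 5), whose descriptions call them WT. The genotype field of the double mutant spells the mutation JAK2V17F, which was read as JAK2V617F. The sources used here do not state the driver of each allele, the deleted part of Ezh2, or the age and strain of the mice. Nothing in the labels says that the libraries of a group came from separate mice, so the p-values speak for the spread among the libraries alone, which may be technical.

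PRC1 places ubiquitin on histone H2A and compacts chromatin at genes that are kept silent. Each complex is built on a RING1 protein (RING1B, encoded by Rnf2, or RING1A, encoded by Ring1) bound to a PCGF protein. In canonical complexes a CBX protein reads the H3K27me3 mark left by Ezh2 and its partners in PRC2, and a PHC protein links complexes to each other. Variant complexes carry RYBP or YAF2 in place of CBX and do not need that mark for recruitment. Bmi1 is known for its requirement in the self-renewal of adult HSCs, in part through silencing of Cdkn2a.

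The starts of the catalytic pair and of Cbx7 are shown first, because Rnf2 and Cbx7 were each the highest gene of their family in most libraries and Ring1 is the paralog of Rnf2. The 120 bases just upstream of each RefSeq start (build GRCm38.p6) are given in the direction of transcription, with CG dinucleotides in capitals. The bases just after the start were found in GENCODE M21 transcripts of the gene for Ring1 and Cbx7, but not for Rnf2. Rnf2 lies at chr1:151500992-151501111, Ring1 at chr17:34024681-34024800 and Cbx7 at chr15:79932647-79932766, all on the minus strand.
Rnf2: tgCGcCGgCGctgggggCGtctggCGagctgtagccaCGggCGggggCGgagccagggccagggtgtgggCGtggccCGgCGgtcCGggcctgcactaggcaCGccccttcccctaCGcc
Ring1: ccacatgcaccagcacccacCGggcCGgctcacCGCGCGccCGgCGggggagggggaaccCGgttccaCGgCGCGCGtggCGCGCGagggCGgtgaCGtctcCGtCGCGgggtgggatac
Cbx7: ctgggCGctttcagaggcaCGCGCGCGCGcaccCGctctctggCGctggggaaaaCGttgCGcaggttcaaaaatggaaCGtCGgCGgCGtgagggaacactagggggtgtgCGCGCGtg
These stretches held 14 CG dinucleotides for Rnf2, 20 for Ring1 and 17 for Cbx7, so the abundant and the scarce catalytic paralog both start in CG-rich sequence.

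RefSeq windows were found for 8 of the 9 members, 12 windows in all because Phc2 and Pcgf5 have several starts. In 9 of the 12 windows the 250 bases upstream of the start had a ratio of observed to expected CG dinucleotides of at least 0.6, a level reached by 34.0% of all 32841 windows. The ratio was 0.66 for Rnf2, 0.89 for Ring1, 0.71 for Bmi1, 0.92 for Cbx7, 0.91 for Cbx8 and 0.61 for Phc1. Pcgf5 and Phc2 each combined starts above and below that level. As for Rnf2, the starts of the Phc2 window at 0.95 and the Pcgf5 window at 0.31 were not found in GENCODE M21 transcripts. A search of both strands of the 300-base windows, which include 50 bases after the start, found TTCNNNGAA, the core bound by STAT factors downstream of JAK2, in the window of Phc1 alone, against 8.30% of all windows. CACGTG occurred in the windows of Bmi1 and Cbx8 and in 1 window of Phc2 (7.15% of all windows), CCGGAAG in 1 window of Phc2 (8.86%) and GGCGGGAA in 1 window of Pcgf5 (2.19%). A match is a description of letters only, and matches of TTCNNNGAA, CCGGAAG and GGCGGGAA, which all contain GAA, can overlap.

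The whole series sets several limits on what follows. Library titles place a number either before or after the group code, and the number-first style covered 7 of 7 double-mutant, 2 of 7 Ezh2 loss, 2 of 7 JAK2V617F and 4 of 5 control libraries. Every fold change below was therefore fitted with the naming style as a term (limma on log2(RPKM + 1)), and is a difference on that scale. The fit takes the style difference to be the same in every genotype. That cannot be checked in the double mutant, which had 0 number-last libraries, and the control had only 1. The labels do not say what the style stands for. Depth, recovered from the steps of the RPKM values, ran from 7.8 to 29.2 M reads (M, the prefix mega), with 14.2 to 29.2 M in number-first and 7.8 to 18.2 M in number-last libraries. Of 12 HSC markers, 11 were above 0 in all 26 libraries, among them Kit, Ly6a, Procr, Mecom, Hlf, Slamf1 and Hoxb5, and Fgd5 was listed at 0 in 1. The summed RPKM of the 12 had medians of 1662.3 (range 1465.2 to 1968.4) in double-mutant and 1288.0 (1064.6 to 1776.4) in Ezh2 loss libraries. In JAK2V617F and control libraries the medians were 1017.2 (946.3 to 1526.5) and 1420.9 (969.6 to 1734.3). Summed RPKM of 10 neutrophil markers had medians of 603.8 (range 47.0 to 52098.0) in double-mutant, 14674.7 (404.0 to 38183.8) in Ezh2 loss, 86.2 (72.9 to 17655.4) in JAK2V617F and 71.7 (43.5 to 388.3) in control libraries. Of those markers, Elane, Mpo and Mmp8 were listed at 0 in 18 of 26 libraries each, Lcn2 in 16, Retnlg in 15 and Ltf in 13. Camp and Ngp were listed at 0 in 5 each, S100a9 in 1 and S100a8 in 0. The highest values of Elane and Mpo were 3639.2 and 1622.2 RPKM. Summed RPKM of 9 erythroid markers ranged from 33 to 6083.7 in Ezh2 loss and from 25.7 to 32.8 in control libraries. In such bulk samples, fewer cells of a type and less RNA per cell cannot be told apart.

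Ezh2 and Jak2, the altered genes, did not separate the groups at the level of whole-gene RNA. Ezh2 averaged 17.4 ± 9.07 RPKM in the double mutant, 17.6 ± 9.0 in Ezh2 loss, 27.1 ± 8.21 in JAK2V617F and 23.7 ± 10.4 in control libraries (SD; n = 7, 7, 7 and 5). With the naming style fitted, Ezh2 differed by -0.43 in the double mutant against control (SE 0.42, limma adjusted p = 0.958) and by -0.44 in Ezh2 loss against control (SE 0.45, limma adjusted p = 0.954). Jak2 averaged 11.3 ± 7.93, 17.8 ± 9.37, 12.8 ± 5.71 and 16.2 ± 4.71 RPKM in the same order of groups. Whole-gene RPKM also counts transcripts that lack a deleted exon, and a base change does not show in it, so neither value checks the labels fully.

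Rnf2, the main catalytic subunit, was the most abundant of the 9 members, with a median of 40.9 RPKM over the 26 libraries (percentile 78.2 among the 12116 tested genes). It was the highest member in 19 of 26 libraries. Rnf2 ran from 32.6 to 70.2 RPKM in the double mutant (median 60.6), from 21.3 to 64.2 in Ezh2 loss (median 32.5) and from 3.70 to 56.7 in JAK2V617F (median 29.1). The control libraries had 59.2, 61.1, 38.7, 65.6 and 29.3 RPKM. The medians of double-mutant and control libraries, which are mostly number-first, were above those of the single mutants, and all 4 groups overlapped. In number-first libraries alone the means were 56.5 RPKM in the double mutant, 53.3 in Ezh2 loss, 36.2 in JAK2V617F and 56.1 in control (n = 7, 2, 2 and 4). The lowest control value, 29.3 RPKM, belongs to the only number-last control library. Rnf2 was the member with the smallest p in JAK2V617F against control, at -0.58 (SE 0.41, limma adjusted p = 0.999), and in the double mutant against JAK2V617F, at 0.60 (SE 0.42, limma adjusted p = 0.773). Those differences became -0.31 and 0.38 without JAK2V617F replicate 6, the library at 3.70 RPKM, which is 100 reads, and -0.98 and 1.16 without the naming style in the fit.

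Ring1, the second catalytic gene, was far scarcer, with a median of 3.44 RPKM. It ran from 0 to 17.1 RPKM in the double mutant (median 4.82), from 0 to 8.52 in Ezh2 loss (median 0.873) and from 3.30 to 9.91 in JAK2V617F (median 4.71), and the control libraries had 0.705, 8.12, 12.0, 1.61 and 2.46 RPKM. Ring1 was listed at 0 in 3 Ezh2 loss libraries and 1 double-mutant library. With 3 reads as the limit that a count of 0 allows, those 4 libraries could hold Ring1 at up to 0.0592 to 0.169 RPKM, depending on depth. This limit covers the sampling of reads only, and not RNA lost before sequencing. Of the 7 Ezh2 loss libraries 6 lay at 3.33 RPKM or below, while all 7 JAK2V617F libraries lay at 3.30 or above. Ezh2 loss against JAK2V617F, the contrast in which both naming styles are equally spread, gave -1.62 for Ring1 (SE 0.63, limma adjusted p = 0.468). Its size depended on the pseudocount, at -3.11 with 0.1 and -0.70 with 5, and was -1.04 with the mean log2 level of 6 neutrophil genes as a covariate. The difference did not pass, and it was the only member and contrast between genotypes with an unadjusted p under 0.05.

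Rnf2 exceeded Ring1 in 25 of 26 libraries, the exception being JAK2V617F replicate 6. Rnf2 made up 89.2 ± 9.37% of the summed RPKM of the pair in the double mutant, 94.6 ± 6.94% in Ezh2 loss, 77.0 ± 22.7% in JAK2V617F and 90.7 ± 9.06% in control libraries (SD; n = 7, 7, 7 and 5). Ezh2 loss against JAK2V617F differed by 17.6 percentage points with the naming style adjusted (exact permutation test within naming style, two-sided, p = 0.0251, adjusted p = 0.134 over 16 share tests). Without JAK2V617F replicate 6 the difference was 9.17 points. The order of the catalytic pair thus held in every group, and its proportion did not differ past the threshold between groups.

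**Figure D1:**
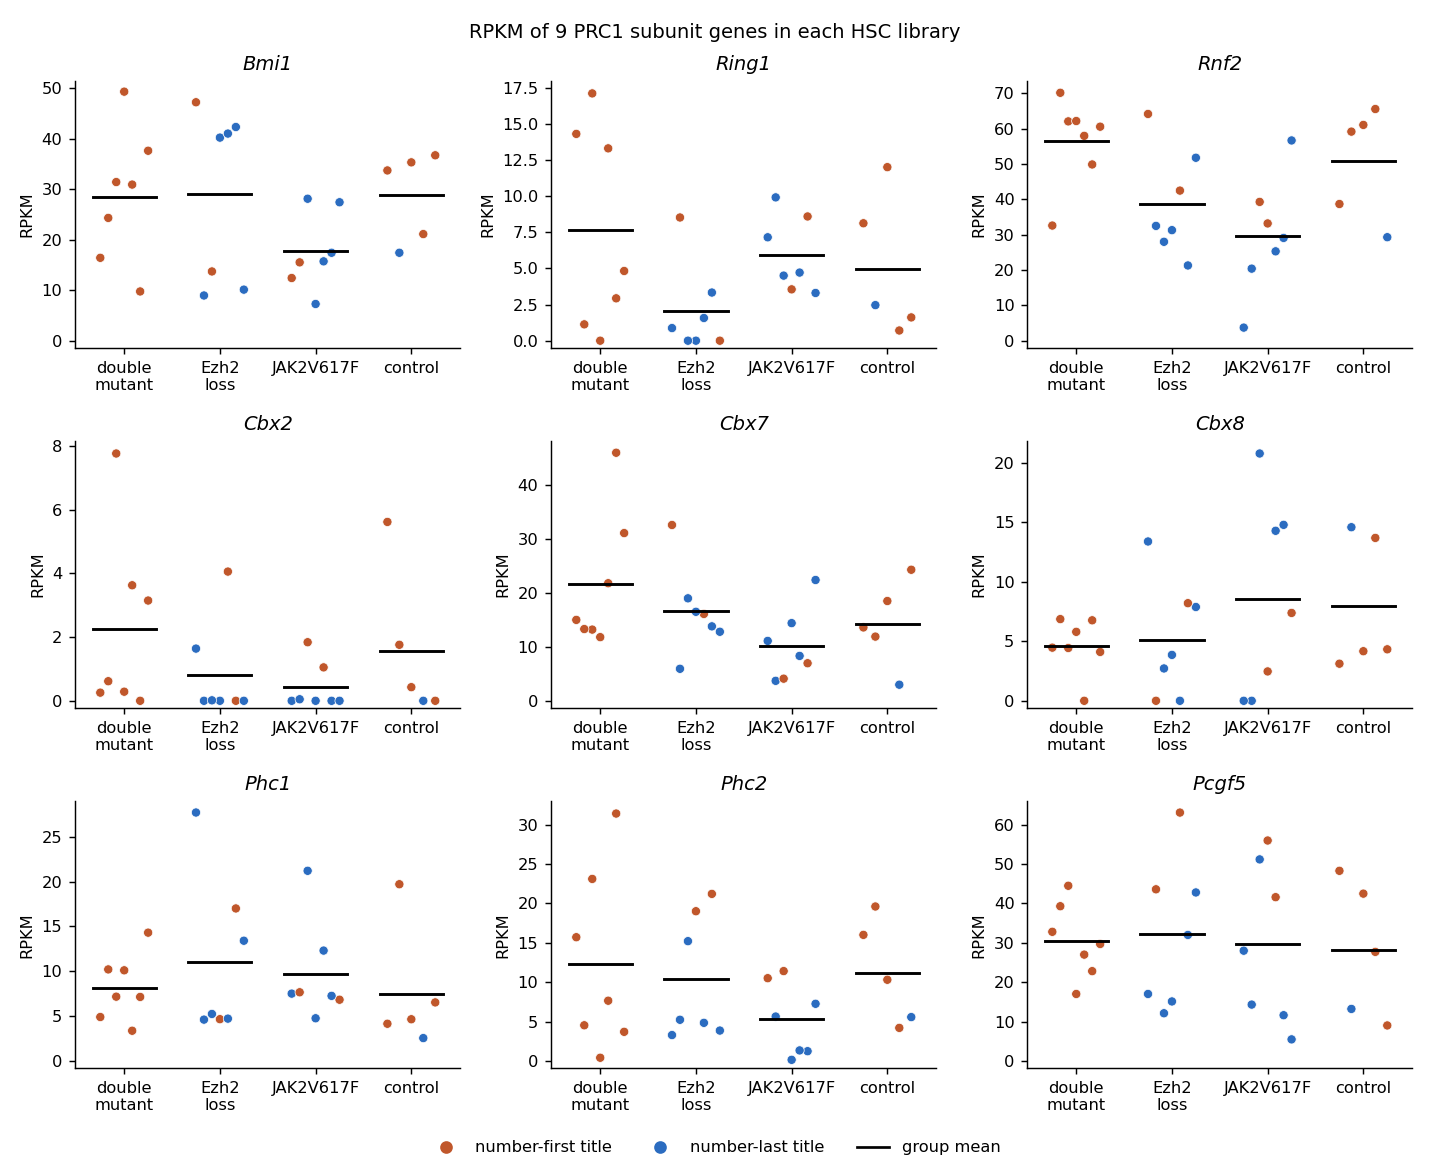
RPKM (y axis, linear) of each of the 9 PRC1 subunit genes in every library, with groups on the x axis (double mutant, Ezh2 loss, JAK2V617F, control), points coloured by the style of the library title and bars at the group means. Rnf2, Pcgf5 and Bmi1 reach the highest levels, Cbx2 stays below 8 RPKM, and the 4 groups overlap for every gene.

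The PCGF subunits define which kind of PRC1 forms, and here 4 of the 6 family members were highest in at least 1 library. Pcgf1 was highest in 11 libraries, Pcgf5 in 9, Bmi1 in 4 and Pcgf6 in 2, while Pcgf2 and Pcgf3 led in none. Bmi1, a PCGF protein of canonical complexes, ran from 9.74 to 49.3 RPKM in the double mutant (median 30.9). It ran from 8.94 to 47.2 in Ezh2 loss (median 40.2) and from 7.26 to 28.1 in JAK2V617F (median 15.7). The control libraries had 35.3, 33.7, 21.1, 36.7 and 17.4 RPKM. No JAK2V617F library exceeded 28.1 RPKM, a level passed by 3 control libraries, but the ranges overlapped. Bmi1 differed by -0.67 in JAK2V617F against control (95% interval -1.68 to 0.33), by -0.15 in Ezh2 loss and by -0.13 in the double mutant. Bmi1 accounted for 23.9 ± 8.83% of PCGF RPKM in the double mutant, 24.9 ± 13.4% in Ezh2 loss, 18.5 ± 7.07% in JAK2V617F and 25.7 ± 3.17% in control libraries (SD; n = 7, 7, 7 and 5). In JAK2V617F against control its share differed by -10.6 percentage points after adjustment for naming style (exact permutation test, two-sided, p = 0.0222, adjusted p = 0.134), where 0.0111 is the smallest p these group sizes allow.

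Pcgf5, which forms a variant complex without CBX proteins, was as abundant as Bmi1, with a median of 28.8 RPKM against 25.9 RPKM, and Bmi1 was the higher of the pair in 11 of 26 libraries. It ran from 17.0 to 44.5 RPKM in the double mutant (median 29.7), from 12.1 to 63.1 in Ezh2 loss (median 32.0) and from 5.46 to 56.0 in JAK2V617F (median 28). The control libraries had 42.5, 27.7, 9, 48.3 and 13.2 RPKM. The unadjusted group means were close, with the highest at 32.2 ± 18.8 RPKM in Ezh2 loss and the lowest at 28.1 ± 17.3 RPKM in control libraries (SD, n = 7 and 5). With the naming style fitted, Pcgf5 had the smallest p of the members in Ezh2 loss against control, at 0.88 (SE 0.48, limma adjusted p = 0.854), and in the double mutant against Ezh2 loss, at -0.83 (SE 0.48, limma adjusted p = 0.707). It was also the member with the smallest p for the interaction (double mutant minus Ezh2 loss minus JAK2V617F plus control), at -1.46 (SE 0.75, limma adjusted p = 0.83). Without the naming style in the fit the first of these values was 0.23 and the others changed sign, to 0.08 and 0.10. Without control replicate 3 the first was 0.55.

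The CBX subunits, which dock canonical PRC1 on H3K27me3, were led by Cbx7, known in mouse HSCs for favouring self-renewal. Cbx7 was the highest of 5 CBX genes in 19 of 26 libraries. It ran from 11.8 to 46.0 RPKM in the double mutant (median 15), from 5.93 to 32.6 in Ezh2 loss (median 16.1) and from 3.70 to 22.4 in JAK2V617F (median 8.32), and the control libraries had 18.5, 13.6, 24.3, 11.9 and 2.98 RPKM. The single number-last control library was again the lowest of its group. Cbx7 was the member with the smallest p in the double mutant against control, at 0.56 (SE 0.48, limma adjusted p = 0.958). That difference was 0.22 without control replicate 5, the number-last library, 0.35 without double mutant replicate 2 and 0.88 with that neutrophil covariate. Its share of CBX RPKM was 46.3 ± 9.19% in the double mutant, 44.1 ± 9.4% in Ezh2 loss, 26.6 ± 11.8% in JAK2V617F and 37.5 ± 16.8% in control libraries (SD; n = 7, 7, 7 and 5). Ezh2 loss against JAK2V617F differed by 17.5 points (exact permutation test within naming style, two-sided, p = 0.0185, adjusted p = 0.134).

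Cbx8, a CBX paralog known to accompany differentiation in mouse progenitors, averaged 4.64 ± 2.33 RPKM in the double mutant, 5.16 ± 4.94 in Ezh2 loss, 8.54 ± 8.23 in JAK2V617F and 7.99 ± 5.67 in control libraries. It was listed at 0 in 5 libraries, 2 of them Ezh2 loss, 2 JAK2V617F and 1 double mutant, and reached 20.8 RPKM in another JAK2V617F library. Cbx7 was above Cbx8 in 7 of 7 double-mutant, 7 of 7 Ezh2 loss, 5 of 7 JAK2V617F and 3 of 5 control libraries. Cbx2 was the scarcest member, with a median of 0.152 RPKM and a listing of 0 in 11. It averaged 2.24 ± 2.85 RPKM in the double mutant, 0.815 ± 1.55 in Ezh2 loss, 0.420 ± 0.737 in JAK2V617F and 1.56 ± 2.38 in control libraries, and its highest value, 7.77 RPKM, was in a double-mutant library. Of the 11 number-last libraries 1 reached 1 RPKM of Cbx2, against 8 of the 15 number-first ones.

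**Figure D2:**
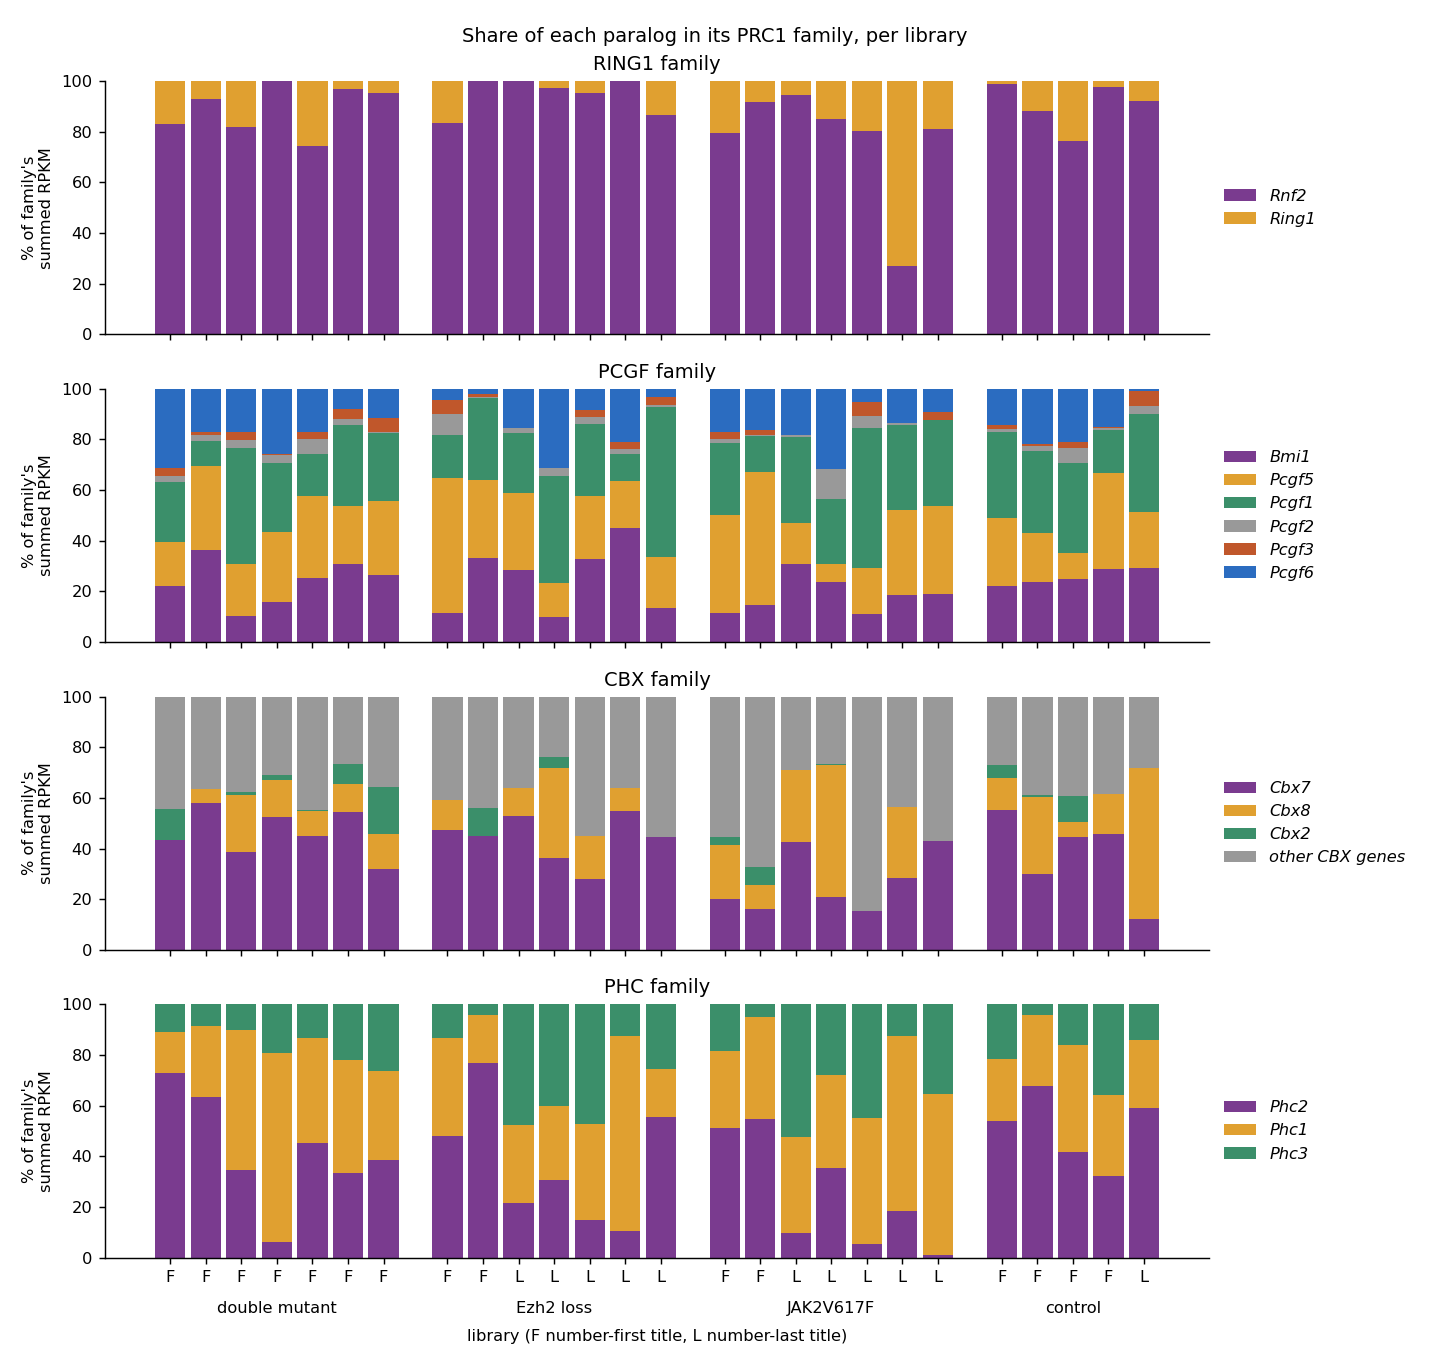
Share (y axis, percent of the family's summed RPKM in that library) of each paralog in the RING1, PCGF, CBX and PHC families, with 1 stacked bar per library, grouped as double mutant, Ezh2 loss, JAK2V617F and control and marked F or L for the title style. Rnf2 fills most of the RING1 bars in all but JAK2V617F replicate 6, where its share is 27.2%, and Cbx7 is above Cbx8 in every double-mutant and Ezh2 loss bar. CBX genes other than Cbx7, Cbx8 and Cbx2 form 1 segment.

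The PHC subunits polymerise through a SAM domain and cluster canonical complexes. Phc1 was present in all 26 libraries, from 2.54 to 27.7 RPKM, with means of 8.16 ± 3.68 in the double mutant, 11 ± 8.88 in Ezh2 loss, 9.64 ± 5.58 in JAK2V617F and 7.52 ± 6.98 in control libraries. Phc2 averaged 12.4 ± 11.5, 10.4 ± 7.81, 5.35 ± 4.6 and 11.1 ± 6.61 RPKM in the same order of groups. Within the double mutant alone Phc2 spanned 0.399 to 31.4 RPKM. Neither was the leading paralog throughout: Phc2 was highest of the 3 PHC genes in 12 libraries, Phc1 in 9 and Phc3 in 5. The share of Phc2 was 42.1 ± 21.8% in the double mutant, 36.9 ± 24.2% in Ezh2 loss, 25.1 ± 22.0% in JAK2V617F and 51.0 ± 14.1% in control libraries (SD; n = 7, 7, 7 and 5), and none of its differences passed (exact permutation tests, smallest p = 0.164, adjusted p = 0.525).

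Tested over all genes, no member passed in any comparison of genotypes. In the double mutant against control 0 of 9 members were called (limma, adjusted p under 0.05), where 0.00825% of the 12116 tested genes were. In Ezh2 loss against control and in JAK2V617F against control 0 of 9 were called, and 0% of all genes. The same count of 0 held for the double mutant against JAK2V617F (0.033% of all genes), the double mutant against Ezh2 loss (0%), Ezh2 loss against JAK2V617F (0.099%), the interaction (0%) and the F test for any genotype difference (0.099%), where Ring1 had the smallest adjusted p, 0.703. At an unadjusted p under 0.05 (limma) the members numbered 0 in the double mutant against control (6.17% of all genes), in Ezh2 loss against control (6.07%) and in JAK2V617F against control (4.14%). They numbered 0 in the double mutant against JAK2V617F (8.06%), in the double mutant against Ezh2 loss (7.84%), for the interaction (6.09%) and in the F test (8.01%), and 1, Ring1, in Ezh2 loss against JAK2V617F (8.27%). A second tool, limma-voom on the recovered reads, also called 0 members in each comparison. With the neutrophil covariate the count was again 0 in each. The median fold change of the 9 members was 0.05 in the double mutant, 0.16 in Ezh2 loss and -0.20 in JAK2V617F against control, beside -0.01, -0.03 and -0.02 over all tested genes. These 3 comparisons share the control libraries.

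The intervals show what these libraries could not resolve. The 95% interval of a mutant against control comparison was narrowest for Rnf2, reaching 0.78 to 0.84 log2 units to either side, and widest for Cbx8, reaching 1.64 to 1.78. An estimate smaller than these left 0 inside its interval. The intervals are not adjusted over all genes, so a larger estimate need not be called. Ring1 in Ezh2 loss against JAK2V617F, at -1.62 with an interval reaching 1.29 to either side, was not. The sampling of reads was a minor part of the spread among libraries. The coefficient of variation of a member within a group ran from 21.5 to 190.5%, which was 5.29 to 30.3 times what the number of reads alone would give. That figure leaves out RNA lost or unevenly copied before sequencing, which was not measured. Cbx2 had coefficients of 127.1 to 190.5%, and Rnf2, at the other end, 21.5 to 55.3%.

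**Figure D3:**
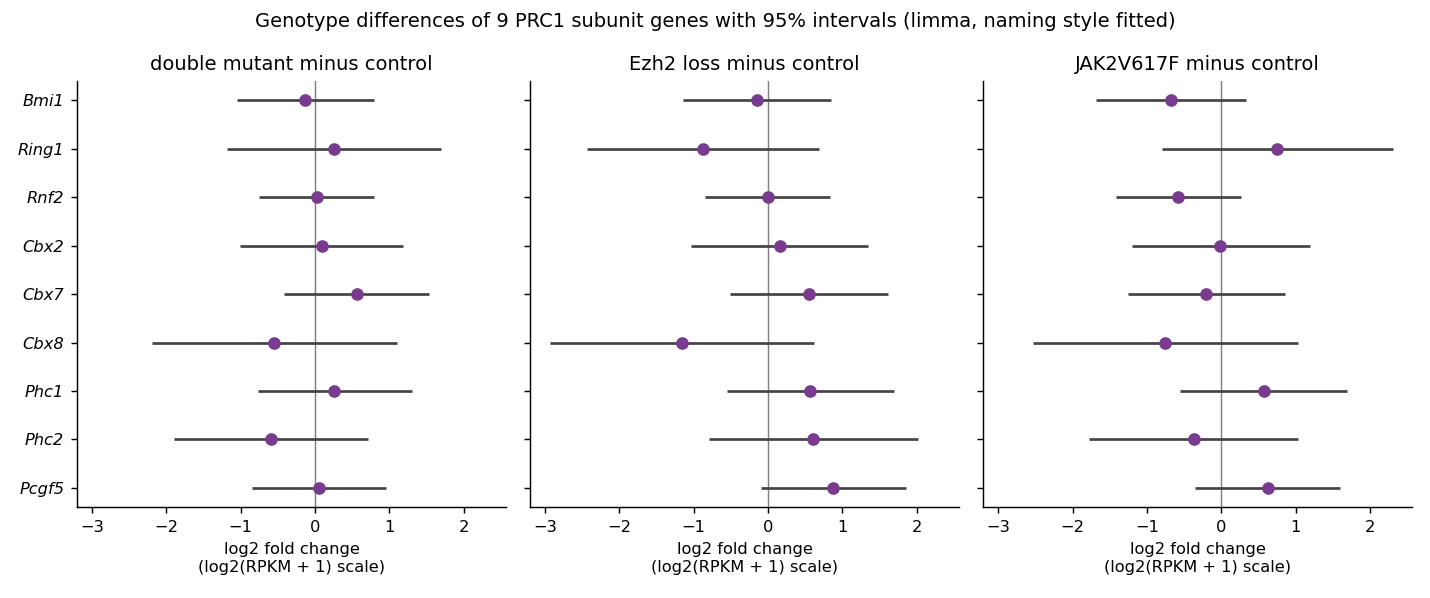
Log2 fold change (x axis, on the log2(RPKM + 1) scale, naming style fitted) of the 9 PRC1 subunit genes in double mutant, Ezh2 loss and JAK2V617F libraries against control, with limma 95% intervals as bars. All 27 intervals include 0, and Pcgf5 in Ezh2 loss at 0.88 comes nearest to excluding it.

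Naming style was also tested as a difference in its own right. Of the 9 members, 1 was called between number-first and number-last libraries (limma, adjusted p under 0.05), where 11% of all tested genes were called, and 4 were past an unadjusted p of 0.05, against 23.4% of all genes. That member was Pcgf5, with 36.3 ± 14.5 RPKM in number-first and 22.1 ± 14.5 RPKM in number-last libraries (SD, n = 15 and 11), a difference of 1.27 with genotype fitted (SE 0.39, limma adjusted p = 0.0289). Its number-first values had a median of 39.3 RPKM (9 to 63.1) and its number-last values a median of 15.1 RPKM (5.46 to 51.2), so the styles overlapped widely. Phc2 differed by 1.59 (SE 0.56, limma adjusted p = 0.0651), with means of 13.2 and 4.86 RPKM. Rnf2 differed by 0.78 (SE 0.33, limma adjusted p = 0.148), with means of 53.3 and 29.9 RPKM, and Cbx2 by 1.09 (SE 0.47, limma adjusted p = 0.15), with means of 2.03 and 0.155 RPKM. With the number of detected genes as a covariate Phc2 was at 0.62 and Cbx2 at 0.47. The call for Pcgf5 was lost without control replicate 5, JAK2V617F replicates 1 or 3, or Ezh2 loss replicate 3, each in turn, where the difference was between 1.18 and 1.36.

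Over all members, 8 were higher in number-first libraries and 1, Cbx8, was lower, with a median difference of 0.45. Over all tested genes the median difference was 0.17 and 60.9% were higher, so most of the table shared that direction. After quantile normalization the median over all genes was -0.03 and the members divided into 6 higher and 3 lower. Naming style, entered first, took up 35.8% of the variance of Rnf2, 30% of Cbx2, 24.2% of Phc2 and 22.2% of Pcgf5. The median over all tested genes was 6.85%. These shares include what style and genotype have in common, since the styles are unevenly spread over the genotypes. Genotype, entered after style, took up 22% for Ring1 and 15.3% for Cbx7, against a median of 9.74%, and 0.49% for Cbx2. Number-first libraries were also the deeper ones (median 19.4 M against 11.3 M reads), and the part of depth in these differences was not tested.

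**Figure D4:**
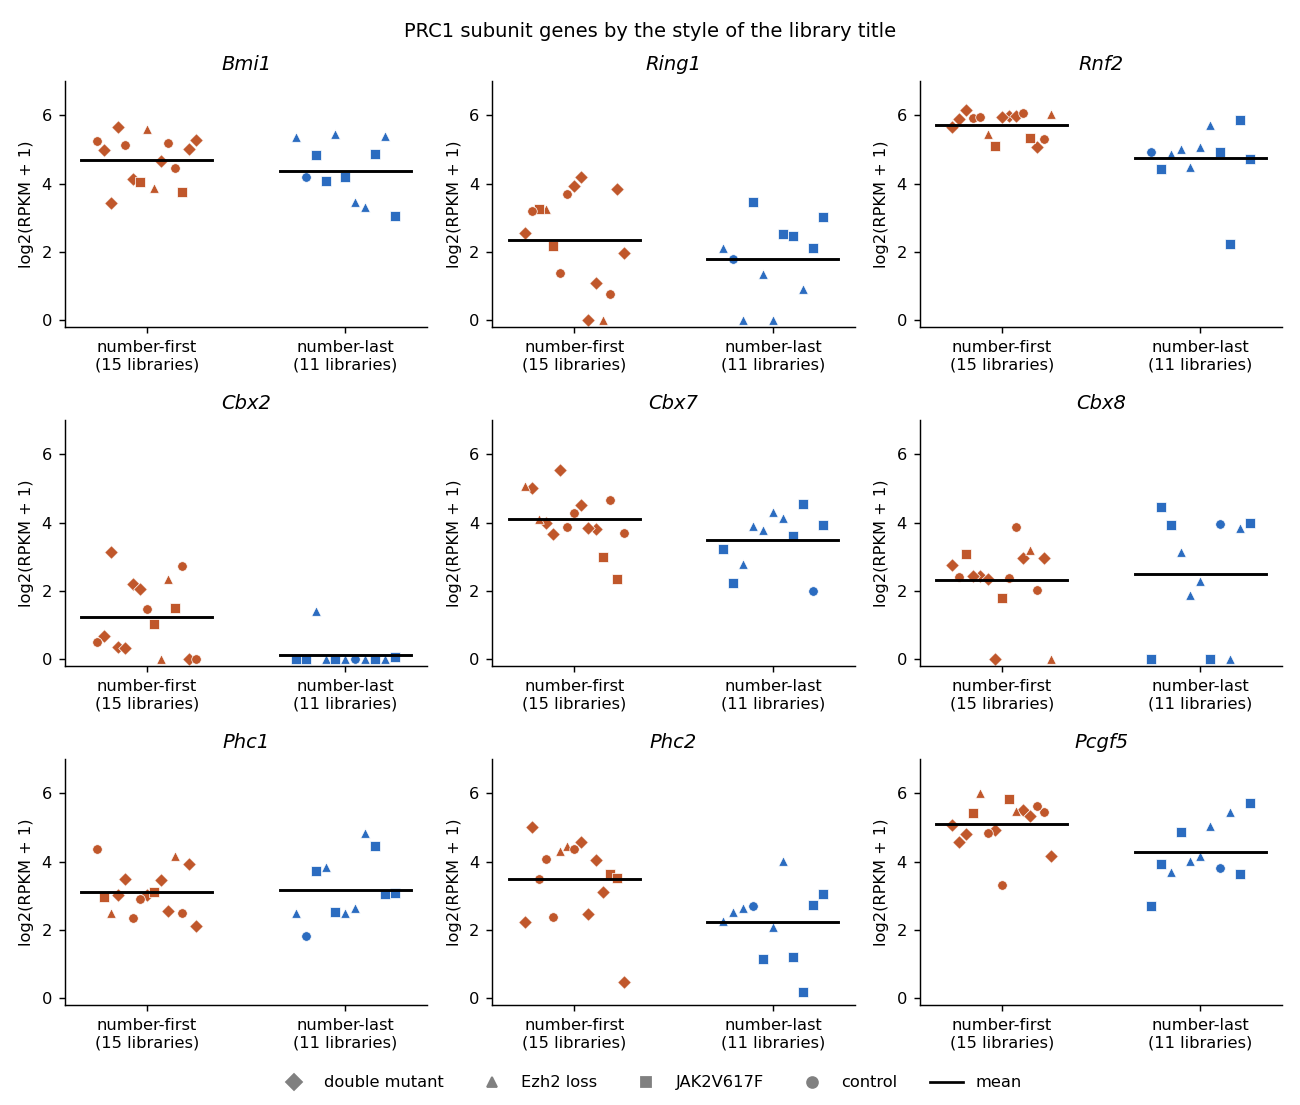
log2(RPKM + 1) (y axis) of the 9 PRC1 subunit genes in 15 number-first and 11 number-last libraries (x axis), with symbols for the genotype groups and bars at the means. Cbx2 is at or near 0 in all but 1 number-last library, and Pcgf5, Phc2 and Rnf2 have higher means in number-first libraries with overlapping points.

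Correlations among the members from library to library lay on both sides of 0. After genotype and naming style were taken out, the 36 pairs of members had a median Pearson r of -0.02 over the 26 libraries, and 17 pairs were above 0. The highest pair was Ring1 with Phc2 (r = 0.59, rho = 0.53), followed by Bmi1 with Cbx7 (r = 0.47, rho = 0.44) and Bmi1 with Pcgf5 (r = 0.46, rho = 0.49). The lowest was Cbx2 with Pcgf5 (r = -0.41, rho = -0.42). Over all pairs of tested genes the central 90% of r lay between -0.38 and 0.39, and 5 of the 36 member pairs were at or above that range's upper end and 1 at or below its lower end. These are descriptions over libraries that share preparation and depth, and without the 2 farthest libraries the highest pair was at 0.49.

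The genes most like each member were taken from the same residuals over 26 libraries. Cbx7 was most like Lpin1 (r = 0.87, rho = 0.89), Smad2 (0.78, 0.80) and Dnaja1 (0.78, 0.77). Bmi1 was most like Zbtb41 (r = 0.79, rho = 0.78), Phc1 most like Sh3d19 (0.80, 0.80), Phc2 most like Rcor1 (0.79, 0.62), Cbx8 most like Thap7 (0.79, 0.70), Ring1 most like 2410127L17Rik (0.73, 0.73), Pcgf5 most like Myo7a (0.72, 0.75) and Cbx2 most like Ankle1 (0.71, 0.67). For Rnf2 the likeness to BC064078 (r = 0.80, rho = 0.65) fell to r = 0.54 without the 2 farthest libraries. Each is the highest of 12115 coefficients, a choice that favours large values.

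Of 32 other listed PRC1 genes, 31 were tested and 0 were called in each genotype comparison and between naming styles. Yaf2, a subunit of variant complexes, was above its paralog Rybp in 26 of 26 libraries, at 36.2 ± 14.5 RPKM in the double mutant, 47.6 ± 17.9 in Ezh2 loss, 53.8 ± 26.4 in JAK2V617F and 51.8 ± 13.5 in control libraries. Pcgf1, the PCGF protein of the complex with the CpG-island binder Kdm2b, averaged 31.4 ± 20.1, 32.8 ± 13.3, 29.8 ± 11.4 and 35.1 ± 14.7 RPKM in the same order of groups. The median fold change of these 31 genes was 0.19 in the double mutant, 0.09 in Ezh2 loss and 0.04 in JAK2V617F against control.

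Among 16 genes known as PRC1 targets, 5 (Cdkn1a, Cdkn1c, Gata3, Hoxa9 and Hmga2) passed the filter and 0 were called between genotypes. Cdkn2a and Cdkn2b, the cell-cycle inhibitors that Bmi1 is known to hold silent, were listed at 0 in all 26 libraries, as were Pax5, Gata6, Hoxb13 and Hoxd13. Cdkn1c, which encodes the inhibitor p57 of quiescent HSCs, was the only one called between naming styles, at 2.44 (SE 0.41, limma adjusted p = 9.03e-05), with 68.1 ± 34.0 RPKM in number-first and 15.1 ± 8.03 RPKM in number-last libraries. Hoxa9 averaged 25.8 ± 9.21 RPKM in Ezh2 loss and 40.5 ± 14.9 RPKM in JAK2V617F libraries, a difference of -0.62 that did not pass (SE 0.27, limma adjusted p = 0.541).

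Levels of different members rest on the gene lengths the authors used. The counted length was 1509 bases for Pcgf5, against 12629 exonic bases in GENCODE M21, and 3028 against 4127 for Rnf2, 3594 against 3974 for Bmi1 and 2893 against 6487 for Cbx7. Reads were not recounted under another annotation, so the levels of members relative to each other hold for these lengths. Reads per library ran from 100 to 4843 for Rnf2, from 91 to 1638 for Pcgf5 and from 0 to 536 for Cbx2. Rnf2, Cbx7 and Pcgf5 overlap other annotated genes, among them Trmt1l and Apobec3 on the opposite strand of Rnf2 and Cbx7, and the sources used here do not state whether counting used strand.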

How the data were processed

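Smart-Seq2 libraries of sorted mouse HSCs (26, in 4 genotype groups) were read from 1 table. The authors deposited RPKM values, 23416 genes by 26 libraries. The submitters' processing notes name Subread 1.5.0, SAMtools 0.1.19, the aligner STAR 2.4.2a and the build mm10 (GRCm38). Their settings and the annotation are not stated there. No column was left out.

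Genes with at least 1 RPKM in at least 5 libraries (12116) were tested with limma 3.58.1 in R 4.3.3 on log2(RPKM + 1), a pseudocount of 1: 1 mean per group plus the naming style, moderated variances with trend and robust fitting, two-sided, Benjamini-Hochberg over all tested genes, called at adjusted p under 0.05. A fold change on this scale understates the change of low genes. Paralog shares were compared by exact permutation within naming style. Whole reads were recovered from the RPKM steps: 12115 of 12116 tested genes were whole in every library within the margin set. That margin was 0.001 reads at low counts and widened in proportion to the count at high ones. Gene positions came from GENCODE M21 and starts from RefSeq (GRCm38.p6). The fits were tested on simulated data.

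The members, the gene lists and the alternatives were chosen with earlier results of these data known. A member's fold change is printed in full where its unadjusted p is under 0.05 or is the smallest of the members in a comparison. Bmi1 in JAK2V617F against control, Hoxa9 and the values of Ezh2 and Jak2 are named outside that rule. Monocyte, B cell, T and NK cell and megakaryocyte markers were also summed. Their medians in double-mutant, Ezh2 loss, JAK2V617F and control libraries were 65.7, 45.2, 56.7 and 31.3 RPKM for monocytes, 102.8, 88.8, 92.7 and 83.3 for B cells, 46.2, 152.9, 79.2 and 51.9 for T and NK cells and 290.3, 223.8, 312.2 and 285.2 for megakaryocytes. Pax5 and Cd3e were listed at 0 in all 26 libraries. Replicates are numbered in order of deposition. Some genes are not reported here.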

Additional observations from a re-analysis of the deposited data

Results flagged for a closer look

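A library was taken as standing apart where its gap to the nearest library of its group, over the range of the group, passed Dixon's 95% critical value. Of 60 groups examined 6 had such a library. The nominal rate of about 1 in 20 holds for normally distributed values. RPKM and shares are bounded and often skewed, so that rate need not apply here and no excess is read from the count. Ring1 was at 8.52 RPKM in Ezh2 loss replicate 3, where the other 6 libraries of that group lay between 0 and 3.33. Cbx2 was at 4.06 RPKM in Ezh2 loss replicate 4, where the others lay between 0 and 1.64. Cbx8 was listed at 0 in double mutant replicate 1, where the others lay between 4.11 and 6.87 RPKM. Phc1 was at 19.7 RPKM in control replicate 3, where the others lay between 2.54 and 6.52. The share of Rnf2 was 27.2% in JAK2V617F replicate 6, where the others lay between 79.5 and 94.5%. Jak2 was at 0.996 RPKM in JAK2V617F replicate 5, where the others lay between 11.4 and 18.9.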

How the results depend on the processing

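Across 40 alternative settings the 8 genotype tests gave 303 counts of called members, and each count was 0. Not every test was run in every setting. The settings included other pseudocounts, filters, scalings, covariates, libraries left out in turn and, chosen after seeing the data, limma-voom on recovered reads. Between naming styles the count of 1 became 0 without a filter, under quantile normalization, with detected genes as a covariate (Pcgf5 1.72) and in JAK2V617F and Ezh2 loss libraries alone (an added choice, Pcgf5 1.36, adjusted p = 0.101). It became 2, with Phc2 added, at a pseudocount of 5 and with the neutrophil covariate, and ranged from 0 to 2 with single libraries left out. It was 2 without control replicate 4, double mutant replicate 4, JAK2V617F replicate 4 or Ezh2 loss replicate 7. The adjusted p of Pcgf5 between styles ran from 0.00963 to 0.101 (limma). Without the naming style term Pcgf5 turned to 0.08 in the double mutant against Ezh2 loss and to 0.10 for the interaction. In number-first libraries alone the share of Phc2 turned to 3.98 points in JAK2V617F and 13.6 points in Ezh2 loss against control. With single libraries left out, shares that turned ran from -2.98 to 1.38 (Bmi1, double mutant against control), -8.23 to 2.36 (Bmi1, Ezh2 loss against control), -2.19 to 6.18 (Cbx7, double mutant against control), -5.73 to 1.76 (Rnf2, double mutant against control), -1.59 to 6.6 (Rnf2, Ezh2 loss against control), -21.9 to 3.98 (Phc2, JAK2V617F against control) and -16.9 to 13.6 (Phc2, Ezh2 loss against control). The cause was not tested.

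Calls over all genes moved more. Without the naming style term they were 274 for the double mutant against JAK2V617F (4 with it), 85 against Ezh2 loss (0), 215 for the interaction (0) and 87 for the F test (12). Over all alternatives they ran from 0 to 6 for the double mutant against control (1 as reported), 0 to 2 for Ezh2 loss and 0 to 1 for JAK2V617F against control (0 each), 0 to 17 for Ezh2 loss against JAK2V617F (12) and 500 to 1435 between styles (1331). Same-numbered titles 2 to 5 of Ezh2 loss and JAK2V617F did not deviate together (r = 0.01, 0.02, -0.06 and 0.01), so these numbers were not taken as pairs. Number 3 alone correlated best with its own number, and the number-last control was not in this check. With the replicate block in those 8 libraries 0 members were called and Ring1 was at -1.89 (limma adjusted p = 0.851), with 1 gene called against 5 without the block. Ring1, Cbx2 and Cbx8 had 0 reads in 4, 11 and 5 libraries, with 3 reads worth at most 0.189, 0.103 and 0.275 RPKM in any library.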
